A study of Mus musculus with 6 samples.

Results

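The genes described here encode the nuclear-encoded subunits of the mitochondrial respiratory chain and of ATP synthase, followed in mouse ovarian tumours grown with or without 17β-estradiol (E2). Members were taken by gene symbol, with no measured value used in that step, though earlier results of these data were known. A gene with several probe sets was represented by the one of highest mean. Nduf genes stood for complex I, Sdh genes for complex II, and Uqcr genes and Cyc1 for complex III. Cox4 to Cox8 genes stood for complex IV and Atp5 genes for ATP synthase (complex V). The rule gave 82 of the 19937 genes measured, of which 35 belonged to complex I, 4 to complex II, 9 to complex III, 17 to complex IV and 17 to complex V. One name in the set, Cox7a2l, is known as a factor that joins complexes III and IV rather than as a structural subunit, and Ndufa4, counted by its symbol in complex I, is known as a subunit of complex IV.

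The respiratory chain passes electrons from NADH (complex I) and succinate (complex II) through complex III to oxygen at complex IV. Complexes I, III and IV pump protons across the inner mitochondrial membrane, and ATP synthase lets them flow back to make ATP. Subunits are made from both nuclear and mitochondrial genes, and tissues with high energy demand, such as heart, skeletal muscle and absorbing epithelia, are rich in them.

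RNA was measured on whole-transcript arrays in 6 tumours, 1 array each, 3 from placebo-treated and 3 from E2-treated SCID mice. The tumours grew from MASE2 cells, a line of ascites cells from a tgCAG-LS-TAg mouse that had itself received E2; in that model, Cre delivered by adenovirus under the ovarian bursa switches on the SV40 large and small T antigens in the ovarian surface epithelium. All tumours therefore share the T antigens, the E2 history of the donor, the immunodeficient SCID host and a single cell line, and the hosts received E2 or placebo pellets when the cells were injected. Tumours were taken when a mouse reached a loss-of-wellness endpoint, so the groups need not be matched for time, and the sources used here state neither the pellet dose nor the age of the mice. Values are log2 signals, so a difference of 1 is a doubling, and the signals of different probe sets are not compared as amounts.

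The array of placebo replicate 3 stood apart, so both fits, with it (6 arrays) and without it (5 arrays), were run. Its correlation with the other 5 arrays over all genes was 0.857 to 0.865, whereas the highest correlation between other arrays was 0.994. All 14 enterocyte markers, 6 of 6 goblet cell markers and 5 of 5 Paneth cell markers were highest on it. The median enterocyte marker signal was 10.55 there and 4.50 to 4.62 on the other arrays, and their summed signal 14.51 against 8.43 to 8.76. The summed smooth muscle marker signal was 10.39 there against 8.01 to 9.23. Of the 8 markers of the MASE2 or ovarian surface epithelial origin, Krt7 was lower and Gata4 higher with E2 on 6 arrays. In whole tumours, fewer cells of a type and less RNA per cell cannot be told apart.

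Most members gave strong signals. In mean signal, 68 of 82 lay in the upper quartile of genes and 77 above the median, and Cox7b2, a testis isoform, was the 1 member that stayed under the lower quartile on all 6 arrays. Stronger genes moved differently from weak ones in this comparison, so counts are set beside the upper signal quartile (4985 genes) as well as all genes.

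With all 6 arrays, no member passed the test between E2 and placebo. The rule was an adjusted p under 0.05 in limma, with Benjamini-Hochberg adjustment over all 19937 genes: 0 of 82 were higher, against 1.06% of all genes and 2.05% of upper-quartile genes, and 0 were lower, against 0.326% and 0.301%. At an unadjusted p under 0.05, 15 members (18.3%) were higher and 1 was lower, where 10.4% and 6.16% of all genes were, and 22.2% and 3.07% of upper-quartile genes. The direction was mostly upward: 71 members had a positive change and 11 a negative one, with a median of 0.19. That median was -0.01 over all genes and 0.21 over upper-quartile genes, so the members' median was close to that of other strongly expressed genes. All 3 E2 tumours lay above all 3 placebo tumours for 17 members (20.7%), against 14.9% of all genes and 31.4% of upper-quartile genes. They lay below for 1 member, Ndufs5, against 11.4% of all genes and 3.85% of upper-quartile genes.

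Without placebo replicate 3, 26 of 82 members (31.7%) rose with E2 and 0 fell. Of all genes, 6.40% rose and 5.21% fell in that fit of 5 arrays, and of upper-quartile genes 14.5% rose and 4.47% fell. The median change was 0.27 for the members, -0.01 for all genes and 0.13 for upper-quartile genes. All 26 were upper-quartile genes, and their changes ran from 0.33 to 0.68, which is 1.26-fold to 1.61-fold. On all 6 arrays the same 26 genes had a median change of 0.32, against 0.49 without placebo replicate 3. The 3 E2 tumours lay above both remaining placebo tumours for 50 members (61.0%), against 21.2% of all genes and 41.0% of upper-quartile genes. They lay below both for 1 member, Ndufs5, against 20.4% and 12.4%. Leaving out a further array moved the count: it was 18 without placebo replicate 1, 12 without placebo replicate 2, 10 without E2 replicate 1, 8 without E2 replicate 2 and 11 without E2 replicate 3. The count over all genes moved too: 731, 688 and 733 rose without E2 replicates 1, 2 and 3 in turn, against 1276 on 5 arrays. In the 2 fits that left out a further placebo tumour, a single placebo tumour remains and is assumed to vary like the E2 tumours. Atp5d, Atp5g3, Cox5a, Cox7a1, Ndufa10, Sdha and Uqcrq were called in all 5 of these fits. Atp5b, Atp5g2, Atp5j, Cox8a, Ndufb9, Ndufs1, Sdhc and Uqcrc1 were called in none of them.

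**Figure D1:**
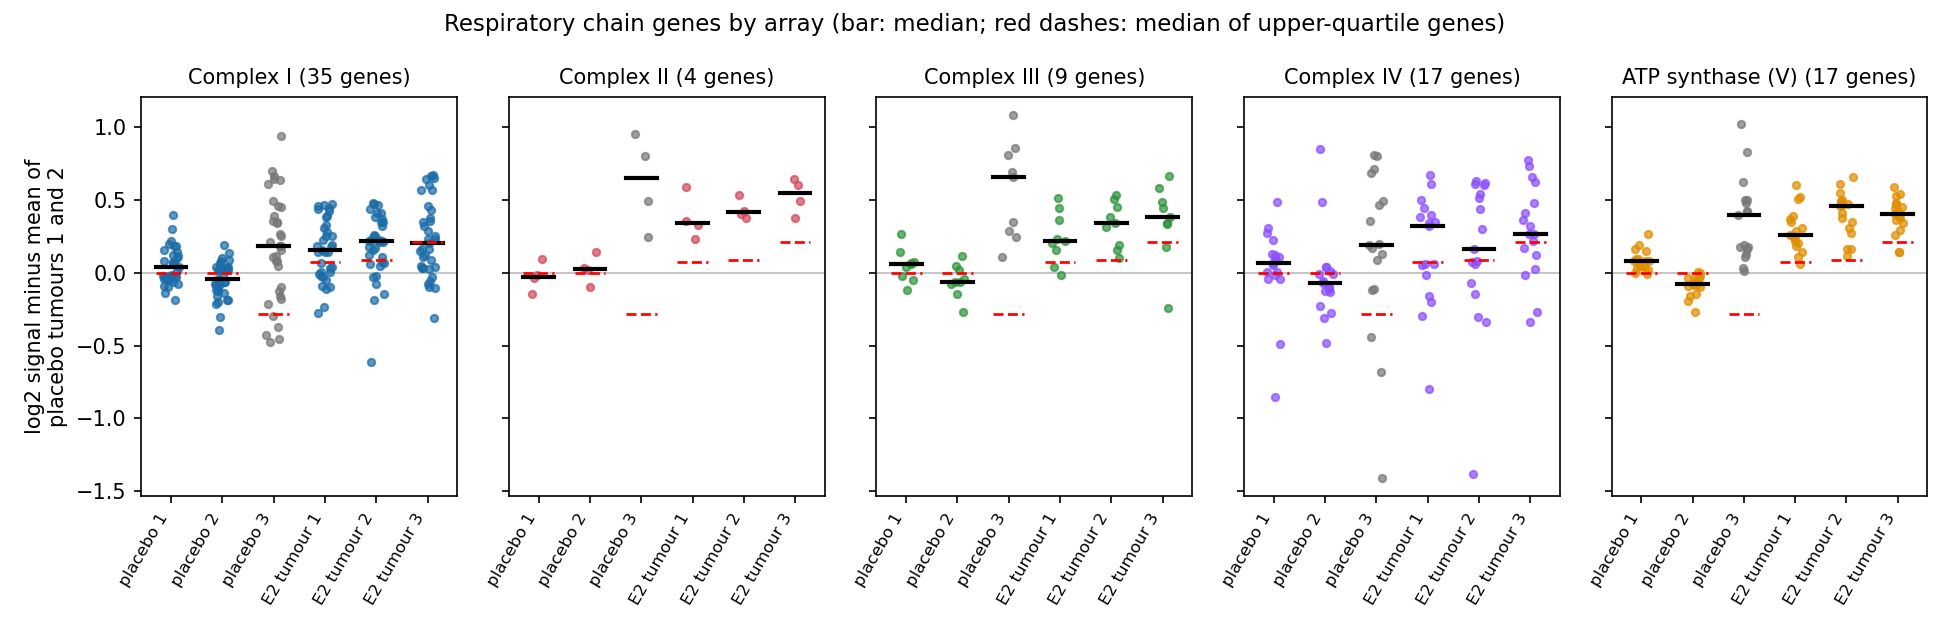
Difference of each member's log2 signal from its mean in placebo replicates 1 and 2, for each of the 6 arrays, by complex; each dot is a gene, each black bar the median of the complex on that array and each red dash the median of upper-quartile genes. The 3 E2 arrays lie above placebo replicates 1 and 2 in every complex by median. Placebo replicate 3 lies above all 3 E2 arrays for complexes II and III, and within their range for complexes I, IV and V.

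Placebo replicate 3 lay above both other placebo tumours for 59 members (72.0%), against 38.1% of all genes and 26.5% of upper-quartile genes. Its median difference from the mean of the other placebo tumours was 0.25 for the members, -0.02 for all genes and -0.28 for upper-quartile genes. It was the highest of all 6 arrays for 31 members (37.8%), against 27.9% of all genes and 15.3% of upper-quartile genes. By complex, the median difference was 0.18 for complex I, 0.65 for complex II, 0.66 for complex III, 0.19 for complex IV and 0.40 for complex V. Of the 26 genes called without it, 25 were higher in it than in the other placebo tumours and 15 were higher in it than in the mean E2 tumour. Enterocytes and smooth muscle hold mitochondria, and their markers were high on this array, as given above; their part in these levels was not tested. As a single tumour it has no spread of its own, so these values are a description.

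**Figure D2:**
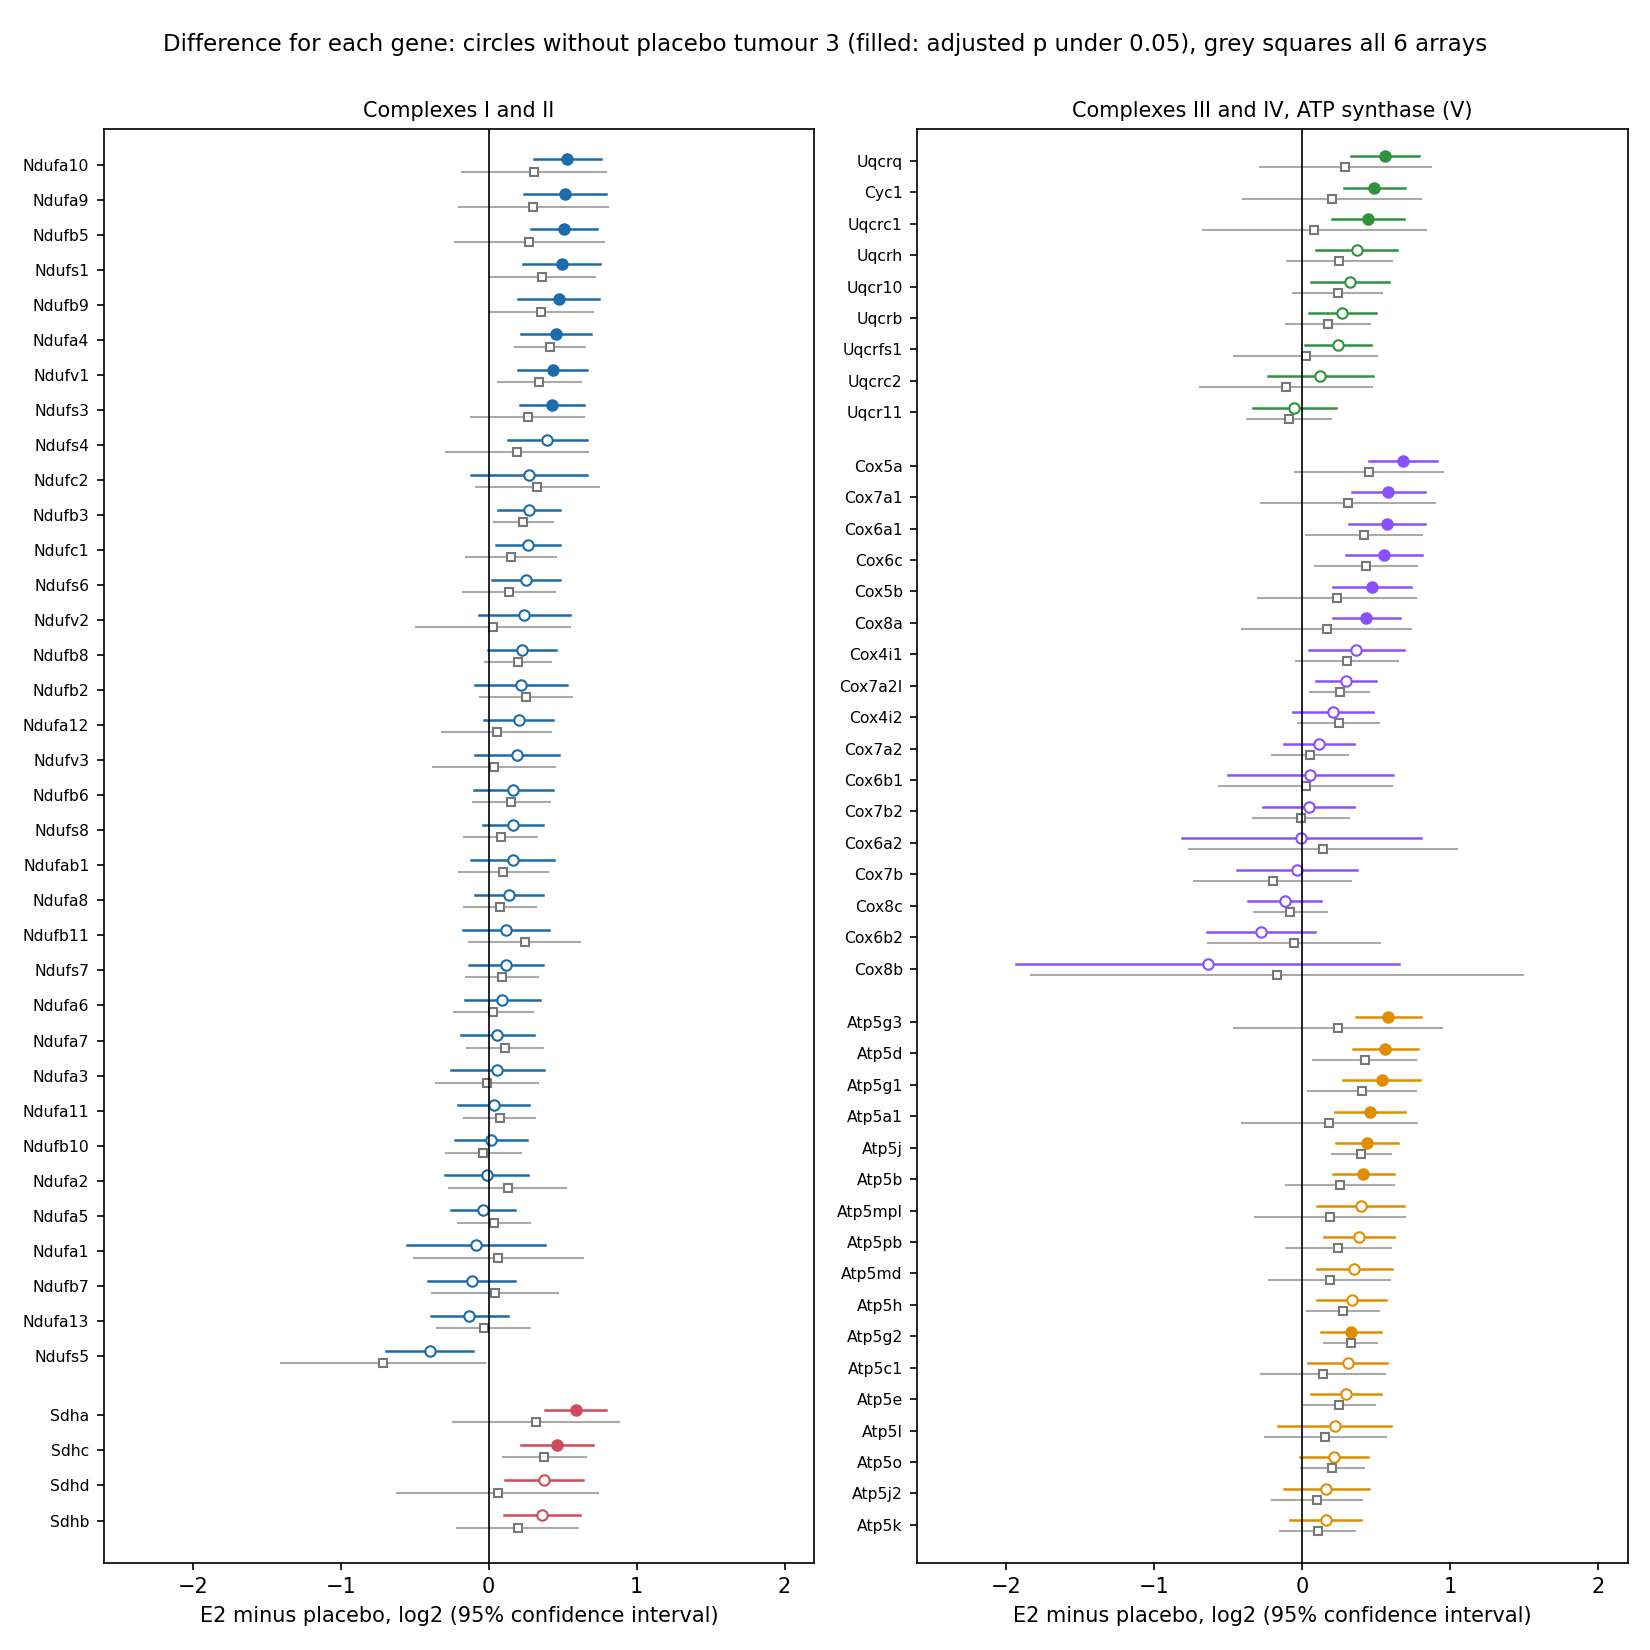
Change of each of the 82 members, E2 minus placebo in log2 signal, with its 95% confidence interval from limma, on 6 arrays (grey squares) and without placebo replicate 3 (circles, filled where called). Without that array, most intervals move right and narrow, and 26 members pass the adjusted threshold; the wide interval is that of Cox8b.

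In complex I, which oxidises NADH, 8 of 35 members (22.9%) rose without placebo replicate 3, where 6.40% of all genes and 14.5% of upper-quartile genes did, and none passed on 6 arrays. The median change of the complex was 0.13 on 6 arrays and 0.19 without that array. Of the 6 core subunits, which carry the electrons and have bacterial counterparts, Ndufv1, Ndufs1 and Ndufs3 rose, and of the 29 supernumerary subunits, which surround the core, 5 rose (17.2%). All 6 core and 22 of the 29 supernumerary subunits were upper-quartile genes. Ndufv1, which binds NADH, read 7.78, 7.98 and 8.15 in placebo replicates 1 to 3 and 8.35, 8.35 and 8.24 in E2 replicates 1 to 3. Each E2 tumour exceeded each placebo tumour, and the difference was 0.34 ± 0.11 (SE; limma adjusted p = 0.226) on 6 arrays and 0.43 ± 0.10 (adjusted p = 0.0317) on 5. Ndufs1, the largest iron-sulphur subunit, read 8.02, 8.08 and 8.44 with placebo and 8.48, 8.44 and 8.72 with E2. Here placebo replicate 3 reached the lowest E2 tumour, and the difference was 0.36 ± 0.15 (limma adjusted p = 0.299) on 6 arrays and 0.49 ± 0.11 (adjusted p = 0.0280) on 5.

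Ndufa10, a matrix-facing supernumerary subunit, read 8.40, 8.44 and 9.08 with placebo and 8.89, 8.89 and 9.06 with E2. Its highest value was that of placebo replicate 3, and its difference was 0.31 ± 0.20 (limma adjusted p = 0.492) on 6 arrays and 0.53 ± 0.10 (adjusted p = 0.0124) on 5. Ndufb5, in the membrane arm, behaved alike, at 7.44, 7.49 and 8.16 with placebo and 7.90, 7.94 and 8.07 with E2. Its difference was 0.28 ± 0.21 (limma adjusted p = 0.543) on 6 arrays and 0.51 (adjusted p = 0.0135) on 5. Ndufa9 and Ndufb9 rose on 5 arrays as well, by 0.52 and 0.47, and differed by 0.30 and 0.35 on 6 arrays. Ndufb3, a small membrane-arm subunit, differed by 0.23 on 6 arrays and 0.27 on 5 with the groups apart, at 5.54 to 5.69 with placebo and 5.82 to 5.91 with E2, and passed neither adjusted test.

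Ndufa4 kept its groups apart on all arrays. It read 9.61, 9.48 and 9.66 with placebo and 9.93, 9.95 and 10.11 with E2. Every E2 tumour lay above every placebo tumour, placebo replicate 3 included. The difference was 0.42 ± 0.10 (limma adjusted p = 0.114) on 6 arrays and 0.45 ± 0.10 (adjusted p = 0.0269) without placebo replicate 3.

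Ndufs5, a supernumerary subunit on the intermembrane-space side, had the most negative change of any member on 6 arrays. It read 5.72, 5.90 and 6.75 with placebo and 5.53, 5.20 and 5.50 with E2, so that placebo replicate 3 was far above the rest. The difference was -0.71 ± 0.28 (limma adjusted p = 0.290) on 6 arrays and -0.40 ± 0.13 (adjusted p = 0.0910) on 5, where Cox8b had the most negative change. A second probe set, which the annotation assigns to both Ndufs5 and its pseudogene Ndufs5-ps, gave a difference of -0.02 on 6 arrays and -0.06 on 5, so the 2 probe sets for this gene did not give the same reading.

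Complex II, succinate dehydrogenase, also works in the citric acid cycle. None of its 4 members passed on 6 arrays, with a median of 0.26. Without placebo replicate 3, 2 of 4 members rose, beside 14.5% of upper-quartile genes, to which all 4 belong, and the median change was 0.42. The E2 tumours lay above both remaining placebo tumours for all 4, as they did for 41.0% of upper-quartile genes and 21.2% of all genes. Sdha, the flavoprotein that oxidises succinate, read 8.31, 8.35 and 9.13 with placebo and 8.92, 8.86 and 8.97 with E2. Placebo replicate 3 exceeded all E2 tumours, and the difference was 0.32 ± 0.23 (limma adjusted p = 0.527) on 6 arrays and 0.59 ± 0.09 (adjusted p = 0.00566) on 5. Sdhc, a membrane anchor, read 8.21, 8.28 and 8.49 with placebo and 8.60, 8.67 and 8.85 with E2. Its groups did not overlap, and the difference was 0.38 ± 0.12 (limma adjusted p = 0.194) on 6 arrays and 0.46 ± 0.11 (adjusted p = 0.0292) on 5. Sdhb, the iron-sulphur subunit, and Sdhd, the other anchor, differed by 0.20 and 0.06 on 6 arrays and by 0.36 and 0.38 on 5, where they missed the threshold (limma adjusted p = 0.0779 and 0.0763).

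Complex III passes electrons from ubiquinol to cytochrome c. On 6 arrays its groups overlapped for all 9 members and the median change was 0.18. Without placebo replicate 3 the median was 0.32 and 3 of 9 (33.3%) rose, Uqcrq, Cyc1 and Uqcrc1, beside 14.5% of upper-quartile genes, to which 8 of the 9 belong. Cyc1, cytochrome c1 itself, read 8.54, 8.46 and 9.36 with placebo and 8.95, 9.03 and 8.99 with E2. The 3 E2 values lay close together, between placebo replicates 1 and 2 and placebo replicate 3, and the difference was 0.20 ± 0.25 (limma adjusted p = 0.701) on 6 arrays and 0.49 ± 0.09 (adjusted p = 0.0124) on 5. Uqcrq, a small subunit, read 6.72, 6.59 and 7.47 with placebo and 7.17, 7.17 and 7.32 with E2, a difference of 0.29 ± 0.24 (limma adjusted p = 0.566) on 6 arrays and 0.56 ± 0.10 (adjusted p = 0.0108) on 5.

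Uqcrc1, a core protein, showed the largest lead of placebo replicate 3 over the other placebo tumours of any member. It read 8.48, 8.58 and 9.62 with placebo and 8.90, 8.92 and 9.12 with E2. That lead was 1.09, and the E2 difference was 0.08 on 6 arrays and 0.45 on 5. Uqcrc2, the other core protein, read 9.40, 8.87 and 9.83 with placebo and 9.18, 9.30 and 9.31 with E2, with the E2 tumours inside the placebo range. Uqcrfs1, the Rieske iron-sulphur protein, read 6.19, 6.07 and 6.79 with placebo and 6.33, 6.32 and 6.46 with E2, and passed neither test. Uqcr10, Uqcrh and Uqcrb, all small subunits, had differences of 0.24, 0.25 and 0.18 on 6 arrays and 0.32, 0.37 and 0.27 on 5, and did not pass.

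Complex IV, cytochrome c oxidase, reduces oxygen. None of its 17 members passed on 6 arrays, with a median of 0.17. Without placebo replicate 3, 6 of its 17 members (35.3%) rose, with a median of 0.21. In that fit 6.40% of all genes rose, and 14.5% of upper-quartile genes, to which 11 of its 17 members belong. Of its 9 widely expressed nuclear subunits, all upper-quartile genes, 5 rose, with a median of 0.43. Of its 7 tissue-restricted isoforms, 1 is an upper-quartile gene, Cox7a1, and it is the one that rose; the median of the 7 was -0.01. The difference between these subgroups was not tested, and it goes with their difference in signal. Cox5a, a subunit on the matrix side, gave the largest called change of any member. It read 7.52, 7.39 and 8.14 with placebo and 8.13, 8.06 and 8.23 with E2. Placebo replicate 3 lay among the E2 tumours, and the difference was 0.45 ± 0.21 (limma adjusted p = 0.342) on 6 arrays and 0.68 ± 0.10 (adjusted p = 0.00465) on 5.

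Cox6c, a small membrane subunit, read 9.10, 9.18 and 9.50 with placebo and 9.52, 9.76 and 9.80 with E2. The groups were apart by a narrow margin, with a difference of 0.43 ± 0.14 (limma adjusted p = 0.214) on 6 arrays and 0.55 ± 0.11 (adjusted p = 0.0183) on 5. Cox6a1, the isoform of most tissues, read 9.01, 8.75 and 9.34 with placebo and 9.49, 9.51 and 9.36 with E2, a difference of 0.42 ± 0.16 (limma adjusted p = 0.277) on 6 arrays and 0.57 ± 0.11 (adjusted p = 0.0154) on 5. Cox8a and Cox5b rose on 5 arrays by 0.43 and 0.47, and differed by 0.17 and 0.24 on 6 arrays. Cox4i1, the common isoform of the regulatory subunit, read 8.62, 8.16 and 8.59 with placebo and 8.73, 8.83 and 8.72 with E2. Its groups did not overlap, yet the spread between the placebo tumours left the difference of 0.30 (6 arrays) and 0.37 (5 arrays) short of the threshold (limma adjusted p = 0.357 and 0.144). Cox7b, Cox7a2 and Cox6b1 had differences of -0.20, 0.05 and 0.03 on 6 arrays and -0.03, 0.12 and 0.06 on 5, and did not pass.

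The isoforms of complex IV followed different arrays. Cox6a2, the heart and skeletal muscle form, read 5.67, 6.65 and 5.72 with placebo and 5.86, 5.82 and 6.78 with E2. Cox8b, also a muscle and brown fat form, read 4.85, 6.56 and 4.30 with placebo and 4.91, 4.32 and 5.97 with E2. Their differences between groups were 0.14 and -0.17 on 6 arrays and -0.01 and -0.64 on 5, and passed in neither fit. Both were highest in placebo replicate 2 and E2 replicate 3, one tumour of each group. All 6 skeletal muscle markers (Acta1, Ckm, Myh4, Tnnt3, Actn3 and Mylpf) were highest in the same 2 tumours. Their median was 9.26 and 9.52 there and 5.27 to 7.23 elsewhere, and their summed signal 12.17 and 12.22 against 8.02 to 10.60. The part of muscle RNA in these readings was not tested. Ucp1, the defining gene of brown fat, read 4.25 to 4.43 over the 6 arrays, whose lower quartiles over genes were 4.22 to 4.39.

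Cox7a1, another muscle form, did not follow those tumours. It read 6.63, 6.53 and 7.39 with placebo and 7.08, 7.09 and 7.31 with E2, highest in placebo replicate 3, where skeletal muscle markers were lowest. It was the tissue-restricted isoform that rose without that array, by 0.58 ± 0.11 (limma adjusted p = 0.0126), against 0.31 ± 0.24 (adjusted p = 0.551) on 6 arrays. Cox4i2, an isoform of lung and of cells short of oxygen, read 5.19, 5.18 and 5.08 with placebo and 5.58, 5.25 and 5.36 with E2. Its groups were apart, and its difference of 0.25 on 6 arrays and 0.21 on 5 did not pass (limma adjusted p = 0.341 and 0.321). The testis isoforms Cox6b2, Cox8c and Cox7b2 had differences of -0.05, -0.08 and -0.01 on 6 arrays and -0.28, -0.12 and 0.05 on 5, and did not pass. Cox7a2l, the supercomplex factor, read 7.08, 7.11 and 7.23 with placebo and 7.41, 7.40 and 7.36 with E2, apart in all tumours, with a difference of 0.25 on 6 arrays (limma adjusted p = 0.207) and 0.30 on 5 (adjusted p = 0.0680).

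**Figure D3:**
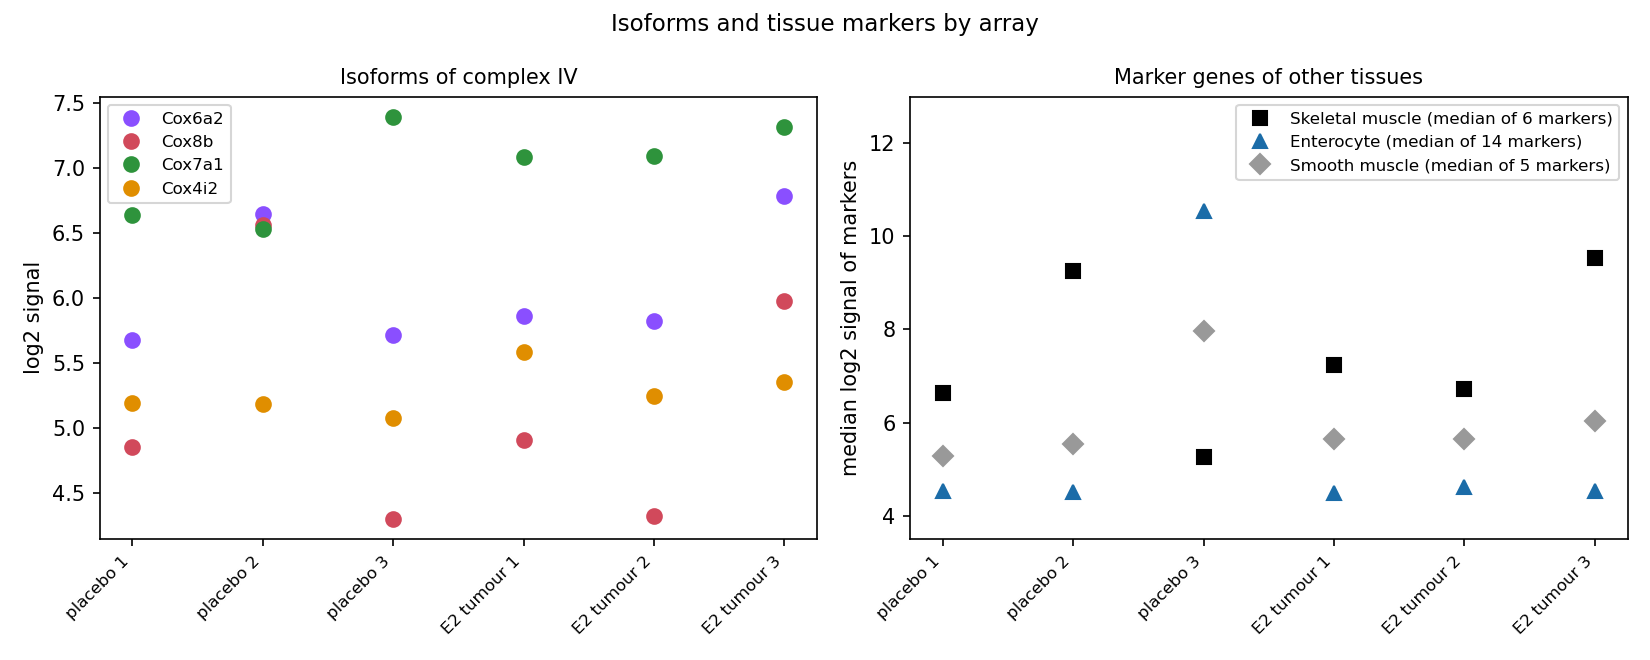
Log2 signal of 4 complex IV isoforms, and median log2 signal of skeletal muscle, enterocyte and smooth muscle markers, on each of the 6 arrays. Cox6a2 and Cox8b are highest in placebo replicate 2 and E2 replicate 3, as are the skeletal muscle markers (medians of 9.26 and 9.52). Cox7a1 is highest in placebo replicate 3 (7.39), as are the enterocyte markers (median 10.55).

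In ATP synthase, all 17 members are upper-quartile genes and all 17 changes were positive. Their median was 0.24 on 6 arrays and 0.35 on 5, beside 0.21 and 0.13 for upper-quartile genes. These members are strong even for that quartile, with a median signal of 8.94 to 9.32 over the arrays. For all genes grouped by mean signal, in bins centred on 8.25 to 10.25, medians were 0.21 to 0.27 on 6 arrays and 0.15 to 0.25 on 5. None passed on 6 arrays, and 7 (41.2%) rose on 5, beside 14.5% of upper-quartile genes. The groups were apart on 6 arrays for 7 of 17 (41.2%), beside 31.4% of upper-quartile genes and 14.9% of all genes; the counts were 4 of 35 for complex I, 1 of 4 for complex II, 0 of 9 for complex III and 5 of 17 for complex IV. Atp5j, coupling factor 6 of the peripheral stalk, came closest to the threshold of any member on 6 arrays. It read 9.68, 9.70 and 9.80 with placebo and 10.06, 10.18 and 10.14 with E2. The groups were well apart and each was tight, and the difference was 0.40 ± 0.08 (limma adjusted p = 0.0885) on 6 arrays and 0.44 ± 0.09 (adjusted p = 0.0199) on 5. Its call on 5 arrays was lost in each of the 5 fits that left out 1 more, with adjusted p from 0.0501 to 0.0775 in limma and changes from 0.41 to 0.47.

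The c-ring, which turns as protons pass, is built from a single mature protein encoded by Atp5g1, Atp5g2 and Atp5g3. All 3 genes rose without placebo replicate 3. Atp5g2 read 8.999, 8.94 and 8.98 with placebo and 9.27, 9.32 and 9.31 with E2. Placebo replicate 3 fell between the others here, and the difference was 0.33 in both fits (limma adjusted p = 0.105 on 6 arrays and 0.0477 on 5). Atp5g2 has 3 probe sets on the array, and only this strongest one kept the groups apart. One that read lower differed in sign, at 6.71, 6.58 and 6.44 with placebo and 6.725, 6.41 and 6.54 with E2. The other read 7.21, 6.72 and 6.84 with placebo and 6.93, 6.93 and 7.16 with E2.

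Atp5g3 read 9.22, 9.06 and 10.16 with placebo and 9.75, 9.75 and 9.68 with E2. Placebo replicate 3 lay 1.02 above the others and above every E2 tumour, so the difference was 0.24 ± 0.29 (limma adjusted p = 0.696) on 6 arrays and 0.58 ± 0.09 (adjusted p = 0.00738) on 5. Atp5g1 read 7.45, 7.15 and 7.70 with placebo and 7.82, 7.80 and 7.89 with E2, apart in all tumours, with a difference of 0.41 ± 0.15 (limma adjusted p = 0.258) on 6 arrays and 0.54 ± 0.11 (adjusted p = 0.0204) on 5. By the probe sets of highest mean, the 3 genes for 1 protein thus agreed in direction and differed in how placebo replicate 3 read.

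In the F1 head, which makes ATP, Atp5a1, Atp5b and Atp5d rose without placebo replicate 3, and Atp5c1 and Atp5e did not pass. Atp5b, the catalytic beta subunit, read 10.50, 10.50 and 10.98 with placebo and 10.85, 10.97 and 10.93 with E2, a difference of 0.26 ± 0.15 (limma adjusted p = 0.455) on 6 arrays and 0.42 ± 0.09 (adjusted p = 0.0243) on 5. Atp5a1, the alpha subunit, read 10.34, 10.15 and 11.07 with placebo and 10.64, 10.79 and 10.69 with E2, a difference of 0.19 ± 0.24 (limma adjusted p = 0.725) on 6 arrays and 0.46 ± 0.10 (adjusted p = 0.0259) on 5. For both, placebo replicate 3 was the highest array. Atp5d, the delta subunit of the central stalk, read 9.53, 9.44 and 9.90 with placebo and 9.99, 10.14 and 10.01 with E2. Its groups were apart, and the difference was 0.42 ± 0.14 (limma adjusted p = 0.227) on 6 arrays and 0.56 ± 0.10 (adjusted p = 0.00911) on 5.

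In the rest of the enzyme fewer genes passed. Of the 4 peripheral stalk genes, Atp5j rose on 5 arrays, Atp5pb lay just outside the threshold (limma adjusted p = 0.0509), and Atp5h and Atp5o differed by 0.34 and 0.22; on 6 arrays the last 3 differed by 0.25, 0.28 and 0.21. None of the 5 small membrane subunits passed, with a median of 0.16 on 6 arrays and 0.22 on 5.

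Just inside the threshold on 5 arrays were Atp5g2 (limma adjusted p = 0.0477) and Ndufb9 (0.0393), and just outside it Atp5pb (0.0509) and Ndufs4 (0.0657).

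**Figure D4:**
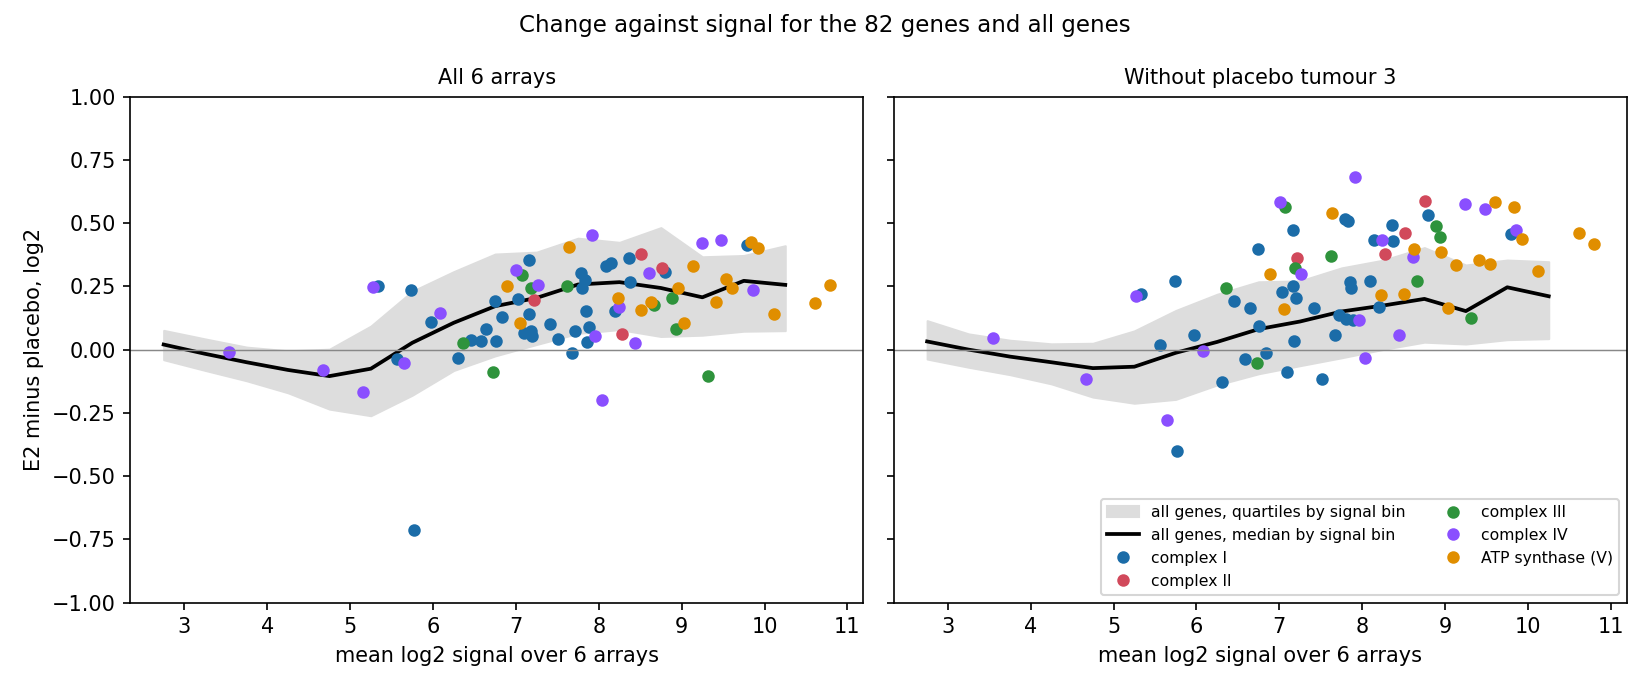
Change, E2 minus placebo in log2 signal, against mean log2 signal, for the members as points and all genes as the median and quartiles of bins of signal, on 6 arrays and without placebo replicate 3. The median over all genes rises with signal in both, from -0.08 to 0.27 on 6 arrays and from -0.05 to 0.17 on 5 between the bins centred on 4.25 and 8.25; the median of the members was 0.19 and 0.27.

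The promoters of the members were searched for motifs of factors known to act on respiratory genes. RefSeq windows of 300 bases on assembly GRCm38.p6, from 250 before to 50 after the start, were held for 67 members and for 27025 genes in all, and both strands were read. The core motif of NRF1, a factor known to act on respiratory genes, is GCGCATGC, and was in 10 member windows (14.9%), 7.66% of windows of upper-quartile genes and 3.05% of all windows. The full NRF1 palindrome, this core followed by GC, was in 7.46%, 3.06% and 1.07%. The YY1 motif AAGATGGC was in 14.9% of member windows, 6.15% of upper-quartile windows and 3.19% of all. The ETS motif CCGGAAG was in 25.4% of member windows, close to the 23.7% of upper-quartile genes, and CCAAT was in 43.3%, 43.6% and 41.1%.

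The motif of estrogen-related receptors, TCAAGGTCA, was in 2 member windows (2.99%), those of Atp5g3 and Sdhd, against 0.268% of upper-quartile and 0.466% of all windows. Its core AAGGTCA, which lies within it, was in 10.4%, 3.60% and 5.38%. The estrogen response element, GGTCA and TGACC with any 3 bases between them, was in 0 member windows and in 20 of all 27025. Between the 19 members called on 5 arrays that have a window and the 48 uncalled, the shares were 15.8% and 14.6% for the NRF1 core, 15.8% and 4.17% for the full palindrome, 21.1% and 27.1% for ETS, 10.5% and 16.7% for YY1, 5.26% and 12.5% for the core of estrogen-related receptors, 5.26% and 2.08% for its longer form, and 36.8% and 45.8% for CCAAT. They run in both directions and rest on few windows. A match is a description of these letters only.

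Stretches of 80 bases are shown for the members whose match lies before the start, 5′ to 3′ on the strand of the gene, with the match in capitals; the first 4 hold the NRF1 palindrome, and Atp5g3 holds the estrogen-related receptor motif read on the opposite strand. They lie at chr15:102671048-102671127 (Atp5g2, minus strand), chr5:108434405-108434484 (Atp5k, minus), chr5:115349076-115349155 (Cox6a1, minus), chr17:56717667-56717746 (Ndufa11, plus) and chr2:73911334-73911413 (Atp5g3, minus). Atp5g2, Cox6a1 and Atp5g3 rose on 5 arrays, and Atp5k and Ndufa11 did not pass, with differences of 0.10 and 0.07 on 6 arrays and 0.16 and 0.03 on 5.
Atp5g2: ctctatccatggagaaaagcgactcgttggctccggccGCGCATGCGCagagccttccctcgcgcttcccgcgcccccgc
Atp5k: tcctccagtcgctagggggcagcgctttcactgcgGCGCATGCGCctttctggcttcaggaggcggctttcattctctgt
Cox6a1: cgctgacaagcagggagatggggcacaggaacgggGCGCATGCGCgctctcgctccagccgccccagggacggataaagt
Ndufa11: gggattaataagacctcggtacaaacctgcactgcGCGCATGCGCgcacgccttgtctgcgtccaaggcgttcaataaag
Atp5g3: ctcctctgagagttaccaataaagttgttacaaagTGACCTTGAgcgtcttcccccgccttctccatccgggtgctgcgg

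The factors named by these motifs were measured as transcripts. Of 22 measured regulators of mitochondrial gene expression, 9 of them upper-quartile genes, 0 passed on 6 arrays. On 5 arrays 3 (13.6%) rose and 1 fell. In that fit 6.40% of all genes and 14.5% of upper-quartile genes rose, and 5.21% and 4.47% fell. Hif1a, Myc and Yy1 rose, by 1.11, 0.80 and 0.37, and Pparg fell by 0.51 (0.79, 0.51, 0.46 and -0.68 on 6 arrays). Esrra, an estrogen-related receptor, read 5.73, 5.81 and 6.71 with placebo and 5.81, 5.89 and 5.73 with E2. Its difference was -0.27 on 6 arrays and 0.04 on 5, and placebo replicate 3 stood above the rest. Nrf1, Tfam, which packs mitochondrial DNA, and Ppargc1a, a co-activator, differed by -0.06, 0.47 and -0.77 on 6 arrays and -0.16, 0.34 and -0.25 on 5, and did not pass.

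Other mitochondrial genes were read in the same fits, where 6.40% of all genes and 14.5% of upper-quartile genes rose on 5 arrays. Of 39 assembly factors, which build the complexes, 4 (10.3%) rose on 5 arrays (Cox18, Bcs1l, Lrpprc and Foxred1) and 0 on 6; 14 of the 39 are upper-quartile genes. Of 77 mitochondrial ribosomal proteins, 36 of them upper-quartile genes, 16 (20.8%) rose on 5 arrays and 3 on 6, and their median in placebo replicate 3 was 0.03 above the other placebo tumours, where that of the subunits was 0.25. Of 17 citric acid cycle genes, 16 of them upper-quartile genes, 4 (23.5%) rose on 5 arrays and 0 on 6, led by Dlat (0.72), Idh3a (0.68) and Fh1 (0.58). Of 15 fatty acid oxidation genes, 13 of them upper-quartile genes, 6 (40.0%) rose on 5 arrays and 0 on 6, among them Slc25a20, a carnitine carrier (0.73), Etfdh (0.70) and Acadvl (0.68). In both of these lists placebo replicate 3 again led the other placebo tumours, by a median of 0.53 and 0.49.

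Of 19 carriers and antioxidant genes, 8 (42.1%) rose on 5 arrays and 0 on 6. Of 22 import genes, 3 (13.6%) rose on 5 arrays, Hspa9, Hspd1 and Tomm40, a share close to that of upper-quartile genes, and 0 on 6. Of 57 cytosolic ribosomal proteins, 2 (3.51%) rose on 5 arrays and 0 on 6, though their median of 0.19 was similar to that of the mitochondrial ribosome at 0.18. Glycolysis had the largest share: 10 of 14 genes (71.4%), all 14 upper-quartile genes, rose on 5 arrays with a median of 0.73, and 1, Aldoc, on 6 arrays. No gene of these lists other than Pparg fell.

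Cell markers also differed between the groups, in fits where 5.21% of all genes fell and 6.40% rose on 5 arrays. Of 6 macrophage markers, 5 fell with E2 on 5 arrays and 1 on 6, and the list's median signal was 7.996 and 7.975 in placebo replicates 1 and 2, 6.60 in placebo replicate 3 and 6.16 to 6.74 in the E2 tumours. Of 4 white fat markers, 3 fell on 5 arrays and 1 on 6. Of 5 endothelial markers, 3 fell on 5 arrays and 0 on 6, and Kdr rose in both fits. Of 4 fibroblast markers, 2 fell and 1 rose on 5 arrays, and 0 passed on 6. Of the 8 origin markers, 4 fell and 1 rose on 5 arrays, and 1 fell and 1 rose on 6. Of 5 smooth muscle and 5 brown fat markers, 1 each rose on 5 arrays and 0 on 6, and of 4 cardiac muscle markers 1, Myl7, rose in both fits. Of the enterocyte and Paneth cell markers, 1 each fell on 5 arrays. None of the goblet cell, skeletal muscle, hepatocyte, pancreatic or lymphocyte markers passed in either fit. The part of these cells in the changes of the subunits was not tested.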

How the data were processed

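RNA from 6 tumours was measured on Affymetrix whole-transcript arrays, 1 per tumour, with groups and replicate numbers from the sample titles. The deposited values are log2 intensities that the authors made with RMA, per the submitters' processing notes (software and version: not given in the sources used here). This method as a rule makes the distributions of arrays alike, so tissue mixed into 1 tumour can shift other genes of its array; here the arrays' medians over probe sets still ran from 4.84 to 4.97. Depth does not apply: the number of arrays limits the precision. Names came from the platform annotation: of 34760 probe sets, 21640 had 1 gene, 1321 several and 11799 none listed. A gene with several probe sets (17 members, 5 of them with probe sets that differ in sign on 6 arrays) was represented by the one of highest mean. All 82 members matched RefSeq by gene identifier.

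E2 and placebo were compared over 19937 genes with limma 3.58.1 (lmFit, eBayes; R 4.3.3), two-sided, with Benjamini-Hochberg adjustment over all genes, on 6 arrays and on 5. The design text calls the samples biological replicates. An exact permutation test of 1 gene cannot go below p = 0.10 with 3 against 3, or 0.20 with 2 against 3. The fit was tested on simulated data.

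The members, lists, motifs and the choice to leave out placebo replicate 3 were made with earlier results of these data known, and the division by role was made after values were seen. Genes named were those of smallest p per complex on 6 arrays and of smallest p on 5, the most negative ones, isoform sets, catalytic subunits and, from other lists, up to 3 of smallest p; Nrf1, Tfam, Ppargc1a and Esrra, and single markers, were named after their values were seen.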

Additional observations from a re-analysis of the deposited data

How the results depend on the processing

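On 6 arrays, the count of members that rose was 0, and 17 with array weights, all 17 among the 26 called on 5 arrays. Over all genes, 211 rose, and 1026 with array weights. At an adjusted p under 0.10, 1 member and 543 of all genes rose. The count of members was 0 to 26 over fits that left out 1 array each, the 26 being without placebo replicate 3. Deviations from the group means were correlated between tumours of the same replicate number, at -0.029, -0.182 and -0.130. The placebo means include placebo replicate 3, which stood apart, so these values cannot decide whether replicate numbers pair the tumours.

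On 5 arrays, the count of 26 became 7 with the replicate number as a block, 10 with all probe sets fitted singly, 13 after repeated quantile normalization and 8 to 18 with a further array left out. In the block fit, E2 replicate 3 had no placebo partner and so did not enter the difference. The median change of members was 0.26 there, the same as without E2 replicate 3. Fits with a further array left out have fewer samples, and the causes of the other shifts were not tested. Over all genes, 1276 rose on 5 arrays, 724 with the block and 1182 after repeated quantile normalization. With all 34760 probe sets fitted singly, 854 of them rose. The count of members that fell was 0, and 0 to 2 with a further array left out, the 2 being Ndufa1 and Cox6b2 without placebo replicate 2, and 1 at an adjusted p under 0.10 (Ndufs5). All 26 genes kept a positive change under every alternative run on 5 arrays. In the 6-array fits that left out 1 array each, the change of Uqcrc1 went as low as -0.12.

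Median changes kept their sign. After repeated quantile normalization, the medians on 6 arrays were 0.072 in place of 0.19 for all members, 0.0096 in place of 0.13 for complex I, 0.15 in place of 0.26 for II, 0.080 in place of 0.18 for III, 0.072 in place of 0.17 for IV and 0.14 in place of 0.24 for V, and on 5 arrays the medians were 0.165 for all members, 0.11 for complex I, 0.28 for II, 0.23 for III and 0.21 for V. Median centring gave 0.25 for complex I on 5 arrays. The median of complex IV on 5 arrays was 0.37 among genes above the signal median and 0.43 among upper-quartile genes, a filter chosen after seeing the data, since such filters drop weak isoforms. With a further array left out on 5 arrays, the median ran from 0.26 to 0.34 for all members and from 0.16 to 0.24 for complex I. On 6 arrays, leaving out 1 array gave 0.11 (without placebo replicate 2) to 0.27 for all members, and without placebo replicate 2 complex III had 0.039.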

Other observations

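Part of every complex except complex II is encoded in mitochondrial DNA, and 2 of those genes had a probe set of their own. COX2, the mitochondrially encoded subunit that takes electrons from cytochrome c, read 10.77, 10.81 and 11.37 with placebo and 10.82, 11.11 and 10.76 with E2. ND3, a membrane subunit of complex I, read 11.21, 11.28 and 11.86 with placebo and 11.29, 11.48 and 11.38 with E2. Neither passed: without placebo replicate 3, COX2 differed by 0.10 ± 0.12 (SE; limma adjusted p = 0.672) and ND3 by 0.14 ± 0.10 (limma adjusted p = 0.447). Both were highest in placebo replicate 3, by 0.58 and 0.62 above the other placebo tumours.

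Probe sets that the annotation assigns to several genes were not counted as members. Of the 3 for Cox7c and Gm12338, the 2 with higher signal differed by 0.29 and 0.21 on 6 arrays and by 0.39 and 0.36 on 5. The stronger of the 2 for Ndufb4 and Ndufb4b differed by 0.27 and 0.31.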
